A study of Mus musculus with 8 samples.

Results

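Coagulation and fibrinolysis genes are the 32 genes whose proteins form, restrain or dissolve the fibrin clot, most of them made by hepatocytes and secreted into plasma. They were taken by name from the 24940 genes of the count table and not by their values, and all 32 were present. Livers of 4 FXRKO and 4 BCL6LKOFXRKO male mice on the C57BL/6 background were compared by RNA sequencing of polyadenylated RNA. Both groups carried floxed Bcl6 alleles (Bcl6 fl/fl) and lacked FXR, the bile acid receptor encoded by Nr1h4, in the whole body. BCL6LKOFXRKO mice carried in addition the Alb-Cre transgene, in which the albumin promoter drives Cre recombinase in hepatocytes and deletes the floxed Bcl6 there. The sources used here give no age for these mice, and livers with intact Fxr or with Cre alone were not analysed here. Each difference below is therefore one between these groups of livers without FXR. The parts of Bcl6 deletion, the transgene, the condition of the livers and any unlabelled grouping in it cannot be told apart. Livers 1 to 4 are FXRKO and livers 5 to 8 are BCL6LKOFXRKO.

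Clotting starts when tissue factor binds factor VII, or when factor XII is activated on a surface. Each path activates factor X, which with its cofactor factor V converts prothrombin to thrombin. Thrombin cleaves fibrinogen, a protein of α, β and γ chains, to fibrin, which factor XIII cross-links and plasmin, made from plasminogen, dissolves. Prothrombin, factors VII, IX and X and the proteins C, S and Z need vitamin K for the carboxylation of their glutamate residues. Antithrombin, heparin cofactor II, tissue factor pathway inhibitor, thrombomodulin and the protein C pathway hold the system back. Hepatocytes are the main source of most of these proteins, whereas von Willebrand factor and factor VIII come mainly from endothelial cells. Tissue factor, tissue factor pathway inhibitor and thrombomodulin are also known mainly from cells other than hepatocytes. Fibrinogen is also an acute phase protein, raised by interleukin 6 in inflammation.

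Between 7586241 and 11839503 reads were counted on genes in each liver. Bcl6 was at 21.2 to 65.2 CPM (read counts normalised for library size and, by TMM factors, for library composition) in FXRKO livers and at 4.61 to 11.9 CPM in BCL6LKOFXRKO livers, and the lowest FXRKO value was that of liver 3. Reads of Nr1h4 were still counted, at 56.7 to 62.6 CPM in FXRKO and 39.4 to 48.1 CPM in BCL6LKOFXRKO livers, a log2 fold change of -0.46. Which part of the gene these reads cover was not tested. Alb, the gene of albumin, took 4.04% to 5.16% of all counts in FXRKO and 11.9% to 13.2% in BCL6LKOFXRKO livers, and the TMM factors were 1.05 to 1.06 and 0.90 to 0.98. In whole liver RNA, fewer cells of a type and less RNA per cell cannot be told apart. The labels name the livers separately but do not say whether they came from 1 litter or cage, so p-values measure the spread between these livers.

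Of the 30 members that passed the expression filter, 8 were called higher and 2 lower in BCL6LKOFXRKO livers at an adjusted p under 0.05 (edgeR's quasi-likelihood test, adjusted by Benjamini-Hochberg over the 12340 genes tested). Among all tested genes 16.2% were called higher and 13.5% lower, so the members' shares of 26.7% and 6.67% lay above and below that background. F7, F10, F2 and Vwf rose most in the clot-forming arm, and Serpinc1, the gene of antithrombin, rose by a like amount in the restraining arm. F5, F12 and Kng1 rose less, and Klkb1 and Pros1 fell. The number called lower turned on single livers: it was 6 without liver 6, 0 without liver 3, 4 or 5 and 1 without liver 1, 2, 7 or 8, while the number called higher stayed between 6 and 9. With 1 liver left out, 1584 to 1873 of all tested genes were called higher and 1267 to 1668 lower. Without livers 3 and 6, left out together after their values were seen, 6 members were called higher and 4 lower. Of the 12473 genes tested there, 1459 were higher and 1228 lower. With scaling by total counts alone, 6 members were higher and 5 lower, where 1404 of 12340 genes were higher and 2949 lower. At an absolute log2 fold change above 0.5 as well, 6 members stayed higher and 0 lower, against 14.1% and 9.84% of all tested genes. On the unadjusted p alone, 11 members were higher and 3 lower, and the share of all tested genes at that threshold was not computed. The 4 BCL6LKOFXRKO livers lay above all FXRKO livers for 6 members and below them for 2, and the same held for 16.1% and 15.2% of all tested genes. The median log2 fold change was 0.09 over the members tested and 0.01 over all genes tested.

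**Figure D1:**
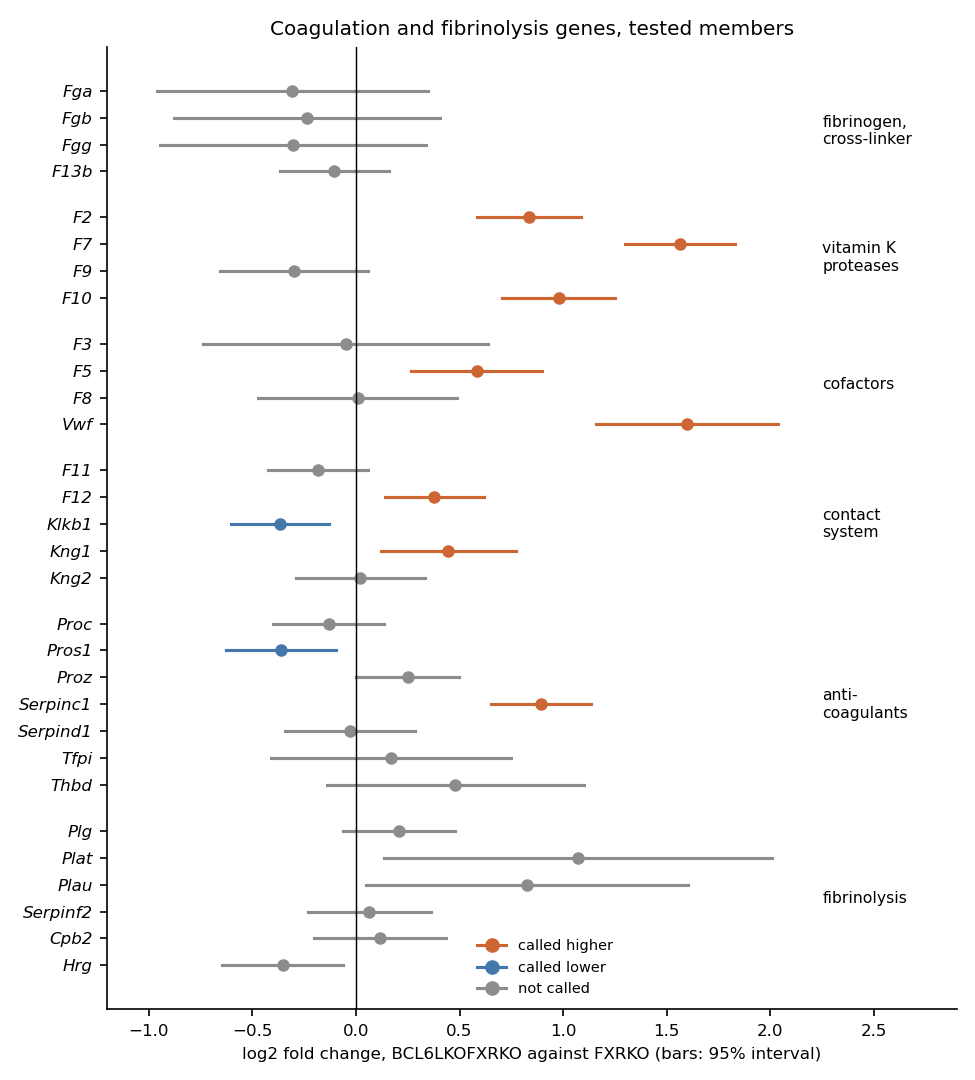
Log2 fold change of each of the 30 tested members between BCL6LKOFXRKO and FXRKO livers (x axis), with its 95% interval as a bar, grouped by role (y axis). Of the called members, Vwf, F7, F10, Serpinc1 and F2 lie furthest to the right, at 1.60, 1.56, 0.98, 0.89 and 0.83, while the fibrinogen chains lie left of 0 with intervals that cross it.

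Levels between genes are compared per kilobase of transcript. Members fell into an abundant and a scarce class with nothing between: 23 had a mean of at least 20 CPM per kb in both genotypes and 9 had a mean under 3 in both. Fgb led in both genotypes at 3670 CPM per kb in FXRKO and 3114 in BCL6LKOFXRKO livers, followed by Fgg at 2676 and 2169. F2 moved from the sixth place at 1041 CPM per kb to the third at 1856, past Fga at 1823. The scarce class held F3, F8, Vwf, Tfpi, Thbd, Plat, Plau, Plaur and F13a1, all of which are known mainly from cells other than hepatocytes. Plaur and F13a1 did not pass the filter.

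**Figure D2:**
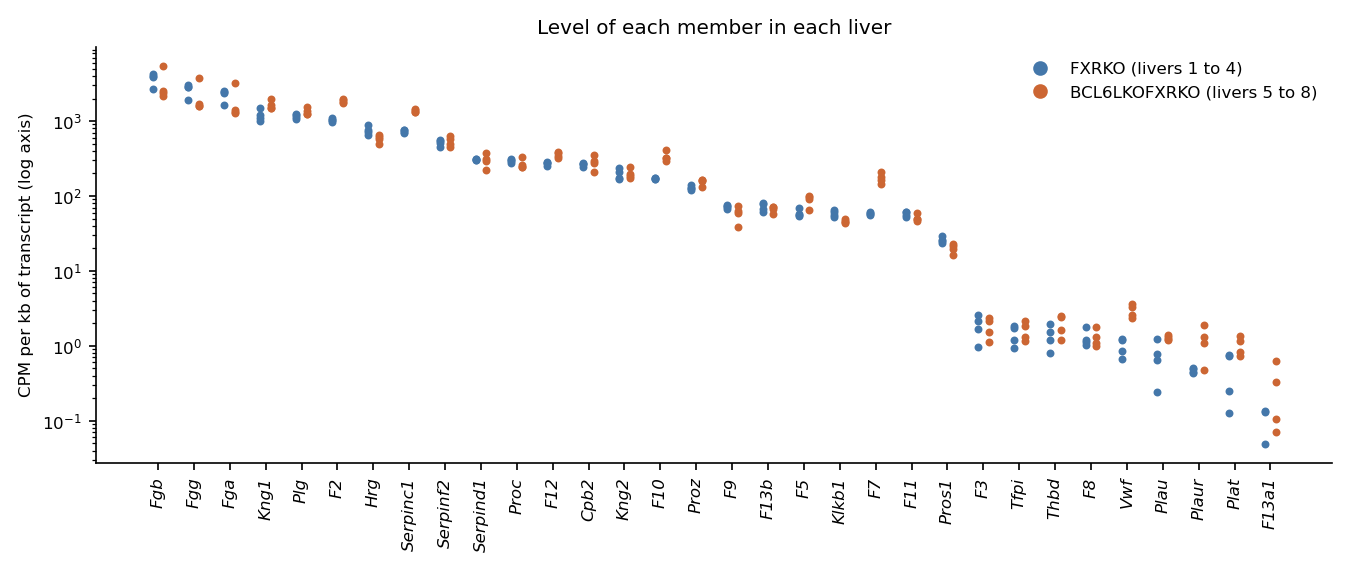
Level of each of the 32 members in each of the 8 livers, in CPM per kb of transcript on a log axis (y), ordered by the FXRKO mean (x). The 23 abundant and 9 scarce members are separated by a step between Pros1 and F3; F13a1 in liver 3 had 0 counts and has no point.

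The vitamin K-dependent procoagulant proteases F2, F7, F9 and F10 had the largest share of calls of the 6 roles, 3 higher of 4 tested, and their median log2 fold change was 0.91. F7, the protease that tissue factor binds (NM_010172, mm10 chr8:13026034-13035805, plus strand), was at 105, 104, 111 and 113 CPM in FXRKO livers and at 270, 327, 304 and 380 CPM in BCL6LKOFXRKO livers. The groups were far apart and the FXRKO livers were close to each other. Its log2 fold change was 1.56 ± 0.12 (adjusted p = 1.21e-06), where ± after a fold change gives its standard error (SE). F10, whose active form makes thrombin (NM_001242368, chr8:13037308-13056676, plus strand), starts 1.5 kb after the end of F7. It was at 451, 471, 461 and 459 CPM in FXRKO livers and at 851, 868, 797 and 1113 CPM in BCL6LKOFXRKO livers. No livers overlapped and liver 8 was the highest, and the log2 fold change was 0.98 ± 0.13 (adjusted p = 9.14e-05). Proz, the gene of the cofactor protein Z and the next gene on that strand, 4.23 kb after F10, gave a log2 fold change of 0.25 ± 0.11 (adjusted p = 0.119), and was called higher by limma voom (adjusted p = 0.023) and without liver 8 (adjusted p = 0.0335).

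F2, the gene of prothrombin (NM_010168, chr2:91625320-91636457, minus strand), was at 2248, 2107, 2053 and 1980 CPM in FXRKO and at 3611, 3872, 3473 and 4002 CPM in BCL6LKOFXRKO livers. Every BCL6LKOFXRKO liver was above every FXRKO liver, with a log2 fold change of 0.83 ± 0.12 (adjusted p = 1.68e-04). F9, the protease lacking in haemophilia B, was the exception in this role: it was at 182 to 208 CPM in FXRKO and 105 to 202 CPM in BCL6LKOFXRKO livers. Its log2 fold change was -0.30 ± 0.17 (adjusted p = 0.197), and liver 8, highest for F7, F10 and F2, was lowest for F9. F7, F10 and F2 were called under every alternative tried.

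The 200 bases before the transcription start of the 3 proteases that rose and of Serpinc1 are shown because, apart from Vwf, these 4 had the largest fold changes of the called members (RefSeq, GRCm38.p6, sense strand, 5′ to 3′). They were read at chr8:13025834-13026033 (plus), chr8:13037108-13037307 (plus), chr2:91636458-91636657 (minus) and chr1:160978383-160978582 (plus); the RefSeq start of Serpinc1 lies 23 bases before that of the count table. Capitals mark the letters of 4 motifs searched on both strands in the 250 bases before the start: GTTAAT (a half-site of HNF1), CAAAGT (a core of HNF4), CTGGGA (a core of the interleukin 6 response element of acute phase genes) and TTCNNNGAA (the palindrome of STAT factors, to which the site of BCL6 is related). N bases stay in lower case.
F7: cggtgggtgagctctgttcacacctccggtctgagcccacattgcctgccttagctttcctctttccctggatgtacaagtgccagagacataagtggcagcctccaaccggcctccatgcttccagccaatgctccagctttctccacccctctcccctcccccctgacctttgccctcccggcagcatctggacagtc
F10: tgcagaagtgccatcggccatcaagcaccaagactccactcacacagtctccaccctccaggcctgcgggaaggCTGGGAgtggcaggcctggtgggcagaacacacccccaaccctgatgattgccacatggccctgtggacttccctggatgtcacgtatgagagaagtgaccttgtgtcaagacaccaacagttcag
F2: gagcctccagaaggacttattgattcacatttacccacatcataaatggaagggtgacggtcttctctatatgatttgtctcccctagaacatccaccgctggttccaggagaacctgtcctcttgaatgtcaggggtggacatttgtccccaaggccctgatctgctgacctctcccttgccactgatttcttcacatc
Serpinc1: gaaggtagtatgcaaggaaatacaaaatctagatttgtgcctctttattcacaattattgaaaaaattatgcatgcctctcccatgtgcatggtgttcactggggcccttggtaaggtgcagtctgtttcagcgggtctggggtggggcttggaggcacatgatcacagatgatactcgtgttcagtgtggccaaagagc
F10 held CTGGGA once, starting 126 bases before its start, and the other 3 held none of the 4 motifs in 250 bases. Promoters were at hand for 25 members, 24 of them with the start used in the count table, and for 6 of the 8 called higher. Of those 6, CTGGGA was in 1 and the other motifs in 0. Among all 32851 promoters of the same length, GTTAAT was in 6.43%, CAAAGT in 12.6%, CTGGGA in 27% and TTCNNNGAA in 7.02%, and among the 25 member promoters the numbers were 4, 6, 10 and 4. A match is a stretch of letters and not a shown site. Only these exact letters were searched, so a promoter without a match may still hold a site of the same factor in other letters.

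Of the cofactors, F5 and Vwf rose and F3 and F8 did not pass the test. Vwf, the gene of the endothelial protein that tethers platelets and carries factor VIII (NM_011708, chr6:125552948-125686679, plus strand), was at 7.39, 10.4, 5.91 and 10.7 CPM in FXRKO and at 20.6, 31.6, 22.9 and 29.1 CPM in BCL6LKOFXRKO livers. The lowest BCL6LKOFXRKO liver was well above the highest FXRKO liver, and the log2 fold change was 1.60 ± 0.20 (adjusted p = 8.26e-05), called under every alternative tried. Of 10 endothelial markers, Stab2 (log2 fold change 0.63) and Eng (0.45) were called higher and 0 lower, with summed levels of 190.8 to 257.4 CPM in FXRKO and 254.2 to 331.6 CPM in BCL6LKOFXRKO livers. Those calls were 20% and 0% of the endothelial markers, against 16.2% and 13.5% of all tested genes. Of 4 platelet and megakaryocyte markers tested, Clec1b (0.61) was called higher, and Pf4, Itga2b and Itgb3 were not called. The sum of all 8 listed was 12.7 to 14.3 and 17.1 to 23.2 CPM. Clec1b alone made up a large part of it, with means of 6.94 and 10.5 CPM. No platelet marker was at 0 in every liver. Their part in the Vwf difference was not tested.

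F5, the gene of the cofactor that speeds thrombin formation (NM_007976, chr1:164151835-164220277, plus strand), was at 399, 422, 415 and 510 CPM in FXRKO and at 709, 670, 749 and 487 CPM in BCL6LKOFXRKO livers. Livers 5, 6 and 7 were above all FXRKO livers and liver 8 was below FXRKO liver 4. The log2 fold change was 0.58 ± 0.15 (adjusted p = 0.00981), and without livers 3 and 6 it was 0.54 with an adjusted p of 0.0501. In the annotation, 262 of the 7430 exon bases of F5 are also covered by Gm16548 on the opposite strand. F3, the gene of tissue factor, was at 3.95, 3.12, 4.84 and 1.80 CPM in FXRKO and at 2.12, 4.37, 3.99 and 2.81 CPM in BCL6LKOFXRKO livers. The 2 ranges overlapped almost completely, on 19 to 45 counts a liver, with a log2 fold change of -0.05 (95% interval -0.74 to 0.64, adjusted p = 0.924). F8, the cofactor lacking in haemophilia A, was at 9.37 ± 2.45 CPM (SD, n = 4) in FXRKO and 9.45 ± 2.59 CPM in BCL6LKOFXRKO livers, with a log2 fold change of 0.0086 (95% interval -0.47 to 0.49). Changes of either gene within those intervals cannot be told from no change in these livers, and the intervals are not limits of detection.

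In the contact system, F12 and Kng1 rose, Klkb1 fell, and F11 and Kng2 did not pass the test. F12, the protease that starts this path (NM_021489, chr13:55417958-55426804, minus strand), was at 563, 544, 541 and 497 CPM in FXRKO and at 723, 671, 637 and 758 CPM in BCL6LKOFXRKO livers. The groups did not overlap, and the log2 fold change was 0.38 ± 0.11 (adjusted p = 0.0206). The call was lost without liver 2, 3, 4 or 5, with adjusted p between 0.0517 and 0.0686, and with total counts alone (0.149). Klkb1, the gene of plasma prekallikrein (NM_008455, chr8:45266688-45294835, minus strand), was at 273, 295, 321 and 336 CPM in FXRKO and at 224, 232, 255 and 238 CPM in BCL6LKOFXRKO livers. All 4 BCL6LKOFXRKO livers were below all FXRKO livers, with a log2 fold change of -0.37 ± 0.11 (adjusted p = 0.0232). The call was lost without liver 3, 4 or 5, with adjusted p between 0.0624 and 0.0739, and 2267 of the 5249 exon bases of Klkb1 are shared with Gm45753 on the same strand. F11, the neighbouring gene 4.66 kb away on the same strand and the protease next in the path, was at 129 ± 10.3 CPM in FXRKO and 113 ± 11.8 CPM in BCL6LKOFXRKO livers (SD, n = 4 each), with a log2 fold change of -0.18 ± 0.11 (adjusted p = 0.239).

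Kng1, which encodes kininogen, the source of bradykinin and the carrier of prekallikrein (NM_023125, chr16:23058300-23082078, plus strand), was at 2322, 1957, 2155 and 2869 CPM in FXRKO and at 2852, 3805, 2882 and 3136 CPM in BCL6LKOFXRKO livers. FXRKO liver 4 lay within the BCL6LKOFXRKO range and liver 6 was above all others. The log2 fold change was 0.45 ± 0.15 (adjusted p = 0.0397), and the call was lost without liver 1, 2, 3, 5 or 6, with adjusted p between 0.0531 and 0.127, and with total counts alone (0.14). Kng2, a second kininogen gene 29.2 kb from Kng1, was at 316 ± 48.6 CPM in FXRKO and 320 ± 51.2 CPM in BCL6LKOFXRKO livers (SD, n = 4 each), with a log2 fold change of 0.02 ± 0.14 (adjusted p = 0.929). Of the 100-base stretches in the annotated transcripts, 4.93% of those of Kng1 and 5.29% of those of Kng2 occur in both genes, so reads there had no single location and were not counted.

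**Figure D3:**
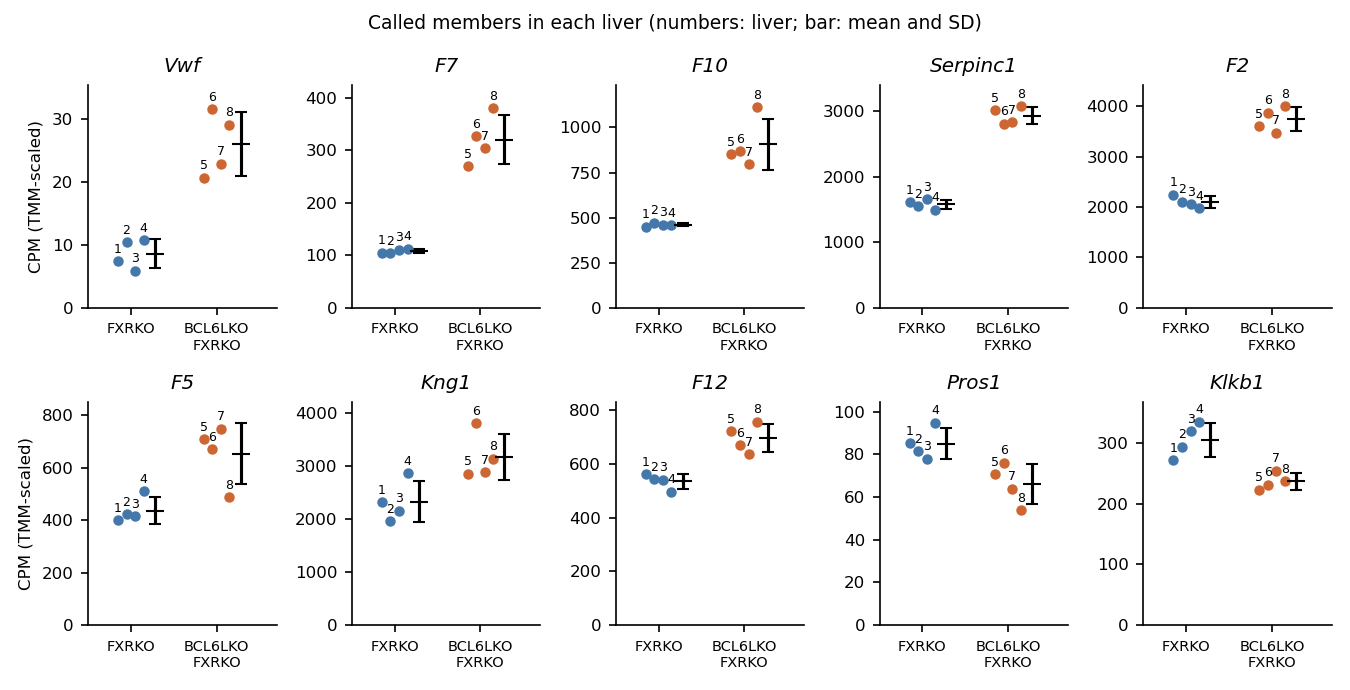
CPM of the 10 called members in each liver (points, numbered by liver, blue FXRKO and orange BCL6LKOFXRKO), with the mean and SD of 4 livers as a bar, on axes that start at 0. The groups do not touch for Vwf, F7, F10, Serpinc1, F2, F12, Pros1 and Klkb1, and they overlap for F5 and Kng1.

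Of the 7 anticoagulants, Serpinc1 rose, Pros1 fell and 5 did not pass the test. Serpinc1, the gene of antithrombin, the main inhibitor of thrombin and factor Xa (NM_080844, chr1:160978606-161003014, plus strand), was at 1613, 1547, 1656 and 1494 CPM in FXRKO and at 3014, 2807, 2831 and 3073 CPM in BCL6LKOFXRKO livers. Both groups were tight and far apart, with a log2 fold change of 0.89 ± 0.11 (adjusted p = 7.34e-05), called under every alternative tried. In the annotation, 2942 of its 8546 exon bases, pooled over all its transcripts, are covered by Zbtb37 on the opposite strand. The counted transcript has 2151 bases, and its own overlap was not computed. Pros1, the gene of protein S, the cofactor of activated protein C (NM_011173, chr16:62854307-62929342, plus strand), was at 85.3, 81.4, 77.9 and 94.8 CPM in FXRKO and at 70.6, 76.1, 63.8 and 53.9 CPM in BCL6LKOFXRKO livers. The highest BCL6LKOFXRKO value lay just under the lowest FXRKO value, and the log2 fold change was -0.36 ± 0.12 (adjusted p = 0.0423). Leaving out any one liver other than liver 6 ended this call, with adjusted p between 0.0533 and 0.121, as did a filter of at least 10 counts in every liver (0.0556). The promoters of both genes called lower, Pros1 and Klkb1, held CTGGGA, at 2 places in Pros1 and 1 in Klkb1, and that of Pros1 also held TTCNNNGAA. CTGGGA was also in 7 of the 17 member promoters of genes not called or not tested, and in 27% of all promoters. With 2 genes, no link between this motif and the calls can be read from these numbers.

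Proc, the gene of protein C itself, stood at a log2 fold change of -0.13 ± 0.12 (adjusted p = 0.453), and liver 8 stood above the other BCL6LKOFXRKO livers at 545 CPM against 401 to 422 CPM. Serpind1, heparin cofactor II, had one of -0.03 ± 0.15 (adjusted p = 0.899). These 2 abundant members thus gave no call in either direction. Tfpi and Thbd were scarce, at 4.32 ± 1.32 and 5.05 ± 1.78 CPM in FXRKO and at 4.85 ± 1.36 and 7.15 ± 2.33 CPM in BCL6LKOFXRKO livers (SD, n = 4 each). Their log2 fold changes were 0.17 (95% interval -0.41 to 0.75) and 0.48 (95% interval -0.14 to 1.10), with adjusted p of 0.667 and 0.23.

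None of the 6 fibrinolysis members tested was called in the edgeR test, though Plat, Plau and Hrg had unadjusted p of 0.0279, 0.0386 and 0.0219. Plg, the gene of plasminogen (NM_008877, chr17:12378609-12419384, plus strand), was at 3305, 3133, 2914 and 3395 CPM in FXRKO and at 3406, 4273, 3353 and 3692 CPM in BCL6LKOFXRKO livers. Liver 6 was again the highest, the ranges overlapped, and the log2 fold change was 0.21 (95% interval -0.06 to 0.48, adjusted p = 0.232). In the annotation, 420 of its 3711 exon bases, pooled over all its transcripts, are covered by Slc22a3 on the opposite strand. The counted transcript has 2734 bases, and its own overlap was not computed. Hrg, a histidine-rich plasma protein that binds plasminogen and heparin, was at 1298 ± 174 CPM in FXRKO and 1016 ± 118 CPM in BCL6LKOFXRKO livers (SD, n = 4 each). Its log2 fold change was -0.35 ± 0.14 (adjusted p = 0.0667), and it was called lower by DESeq2 (adjusted p = 0.0313), with total counts alone (0.0117) and without liver 6 (0.0449), where over all alternatives the adjusted p ran from 0.0117 to 0.194.

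The plasminogen activators were scarce: Plat was at 0.32 to 1.89 CPM in FXRKO and 1.85 to 3.42 CPM in BCL6LKOFXRKO livers, and Plau at 0.57 to 2.91 and 2.82 to 3.27 CPM. Both ranges overlapped only at their edges, on 3 to 34 and 6 to 36 counts a liver. The log2 fold change was 1.07 ± 0.43 for Plat (adjusted p = 0.0799) and 0.83 ± 0.36 for Plau (adjusted p = 0.101). Limma voom called Plat (adjusted p = 0.0229) and the fit without liver 1 called Plau (adjusted p = 0.0233). Plaur, the receptor of urokinase, had 6 to 7 counts in each FXRKO liver and 7, 16, 17 and 31 counts in livers 5 to 8. It was not tested by edgeR and was called higher by DESeq2, in the fit with no filter and in the fit without liver 5. The 2 abundant plasmin restrainers gave values near 0: Serpinf2, the gene of antiplasmin, had a log2 fold change of 0.06 (95% interval -0.23 to 0.36) and Cpb2, whose product removes the lysines to which plasminogen binds, one of 0.12 (95% interval -0.20 to 0.43).

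Fibrinogen differed more between livers of 1 genotype than between the genotypes. Fga, the gene of the α chain (NM_010196, chr3:83026153-83033617, plus strand), was at 8209, 8458, 5574 and 7992 CPM in FXRKO and at 4761, 10897, 4304 and 4481 CPM in BCL6LKOFXRKO livers. Fgb, the gene of the β chain (NM_181849, chr3:83042246-83049863, minus strand), was at 6611, 7116, 4474 and 6682 CPM and at 3985, 9237, 3667 and 4225 CPM. Fgg, the gene of the γ chain (NM_133862, chr3:83007724-83015056, plus strand), was at 4870, 5119, 3220 and 4880 CPM and at 2836, 6423, 2699 and 2699 CPM. In each chain liver 3 was the lowest FXRKO liver, liver 6 was above all 7 others, and livers 5, 7 and 8 lay below all FXRKO livers, liver 3 included. With all 8 livers the log2 fold changes were -0.31, -0.24 and -0.30 (SE 0.29 each), with adjusted p of 0.468, 0.575 and 0.464. Without liver 6, Fga, Fgb and Fgg were called lower, at -0.75, -0.66 and -0.73 with adjusted p of 0.00355, 0.0095 and 0.00548. Without liver 3 they were at -0.43, -0.37 and -0.44 and not called, and without both, an alternative chosen after seeing these values, they were at -0.87, -0.78 and -0.85 with adjusted p of 4.82e-04, 0.00113 and 4.92e-04.

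The liver with high fibrinogen was also high in other acute phase genes. Among 15 of these (serum amyloids, haptoglobin, orosomucoids and others), liver 6 was the highest of the 4 BCL6LKOFXRKO livers in 14, and liver 3 was the lowest of the 4 FXRKO livers in all 15. Over all tested genes, liver 6 was the highest of its group in 24.8% and liver 3 the lowest in 24.6%. The mean log2 deviation from the genotype mean was 0.93 for the fibrinogen chains and 1.005 for the acute phase genes in liver 6, and -0.45 and -1.12 in liver 3. In liver 1 it was 0.13 and 0.91, so a high acute phase deviation did not come with high fibrinogen there. The 27 other members tested were highest in liver 6 for 14 members and highest in liver 4 among FXRKO livers for 15. Saa4 (log2 fold change -2.40, adjusted p = 0.00497) was called lower and Cp (2.14), the gene of ceruloplasmin, Itih4 (1.55) and Hpx (0.84), that of hemopexin, higher among the acute phase genes. These calls were 20% higher and 6.67% lower of the acute phase genes, against 16.2% and 13.5% of all tested genes. Without livers 3 and 6 the numbers were 3 higher and 4 lower, where 1459 of the 12473 genes tested were higher and 1228 lower.

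**Figure D4:**
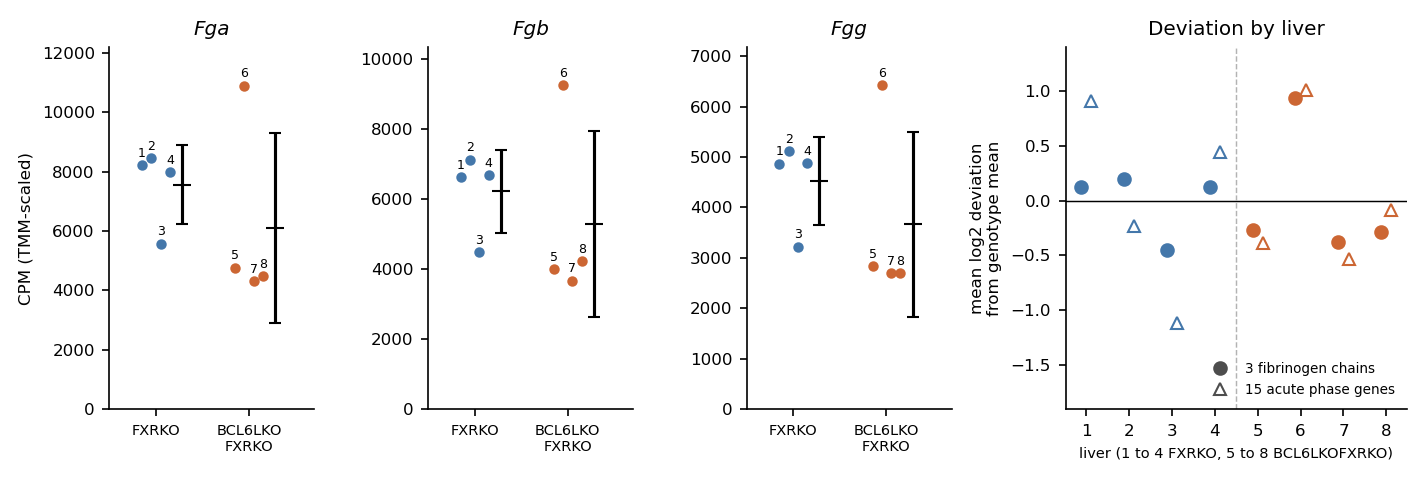
CPM of Fga, Fgb and Fgg in each liver (points numbered by liver; bar, mean and SD of 4 livers), and, at the right, the mean log2 deviation from the genotype mean of the 3 chains (filled circles) and of the 15 acute phase genes (open triangles) in each liver. Liver 6 is above all others in each chain and liver 3 is the lowest FXRKO liver.

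The 200 bases before the start of the 3 chain genes, which lie within 1 cluster with 11.1 kb between Fgg and Fga and 8.63 kb between Fga and Fgb, are shown because their levels moved together liver by liver (RefSeq, GRCm38.p6, 5′ to 3′, at chr3:83025953-83026152, plus; chr3:83049864-83050063, minus; chr3:83007524-83007723, plus). Capitals mark the same 4 motifs.
Fga: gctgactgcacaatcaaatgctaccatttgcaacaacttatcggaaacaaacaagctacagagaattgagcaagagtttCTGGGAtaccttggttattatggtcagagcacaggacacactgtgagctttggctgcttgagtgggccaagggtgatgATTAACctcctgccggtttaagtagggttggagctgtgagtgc
Fgb: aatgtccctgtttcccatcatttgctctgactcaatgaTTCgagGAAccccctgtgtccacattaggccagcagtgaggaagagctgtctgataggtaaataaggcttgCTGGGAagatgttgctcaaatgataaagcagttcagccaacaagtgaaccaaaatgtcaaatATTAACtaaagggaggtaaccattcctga
Fgg: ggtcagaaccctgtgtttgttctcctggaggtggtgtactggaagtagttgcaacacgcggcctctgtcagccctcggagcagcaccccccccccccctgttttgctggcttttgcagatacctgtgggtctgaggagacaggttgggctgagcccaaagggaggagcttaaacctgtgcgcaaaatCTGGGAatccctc
CTGGGA was in all 3 chains, starting 121, 91 and 13 bases before the start of Fga, Fgb and Fgg. The half-site GTTAAT, read on the other strand as ATTAAC, began 43 bases before the start of Fga and 29 before that of Fgb, and Fgg had none. TTCNNNGAA was in Fgb, 162 bases before the start, and in Fga 234 bases before it, outside the stretch shown. In F9, CTGGGA and TTCNNNGAA shared 6 bases.

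The chains kept their proportions to each other. The ratio of Fgb to Fga per kilobase ran from 1.59 to 1.86 and that of Fgg to Fga from 1.15 to 1.25 over all 8 livers, while the sum of the chains ran from 10674 to 26557 CPM. The mean log2 ratio of Fgb to Fga was 0.70 ± 0.04 in FXRKO and 0.78 ± 0.08 in BCL6LKOFXRKO livers (SD, n = 4 each; exact permutation test, p = 0.0571, adjusted p = 0.114 over 6 ratios). Of the fibrin cross-linker, F13b, the carrier subunit of factor XIII, was at 169 ± 20.4 and 157 ± 16.3 CPM (SD, n = 4 each) with a log2 fold change of -0.10 ± 0.12 (adjusted p = 0.556). F13a1, the catalytic subunit, had 0 to 5 counts in FXRKO and 3 to 20 counts in BCL6LKOFXRKO livers and was not tested.

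Ratios within 1 liver do not depend on the scaling between libraries. The ratio of F10 to F7 per kilobase was 2.95, 3.11, 2.87 and 2.79 in FXRKO and 2.17, 1.83, 1.80 and 2.01 in BCL6LKOFXRKO livers. All 4 BCL6LKOFXRKO livers were lower, a log2 difference of -0.59 (exact permutation test, two-sided, p = 0.0286, the smallest that 70 orderings allow; adjusted p = 0.0857 over 6 ratios). The ratio of Kng2 to Kng1 was 0.157 to 0.174 in FXRKO and 0.119 to 0.125 in BCL6LKOFXRKO livers, also without overlap, a log2 difference of -0.43 (exact permutation test, p = 0.0286, adjusted p = 0.0857). Neither difference passed 0.05 after adjustment, which p-values of this smallest size could not do with the other ratios as they were. Klkb1 to F11 differed by -0.18 on the log2 scale, Serpinc1 to F2 by 0.06 and Fgg to Fga by 0.02, with exact permutation p of 0.143, 0.314 and 0.571. Antithrombin and prothrombin transcripts stood in a ratio of 0.672 to 0.782 over all 8 livers, although each was higher in BCL6LKOFXRKO livers.

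**Figure D5:**
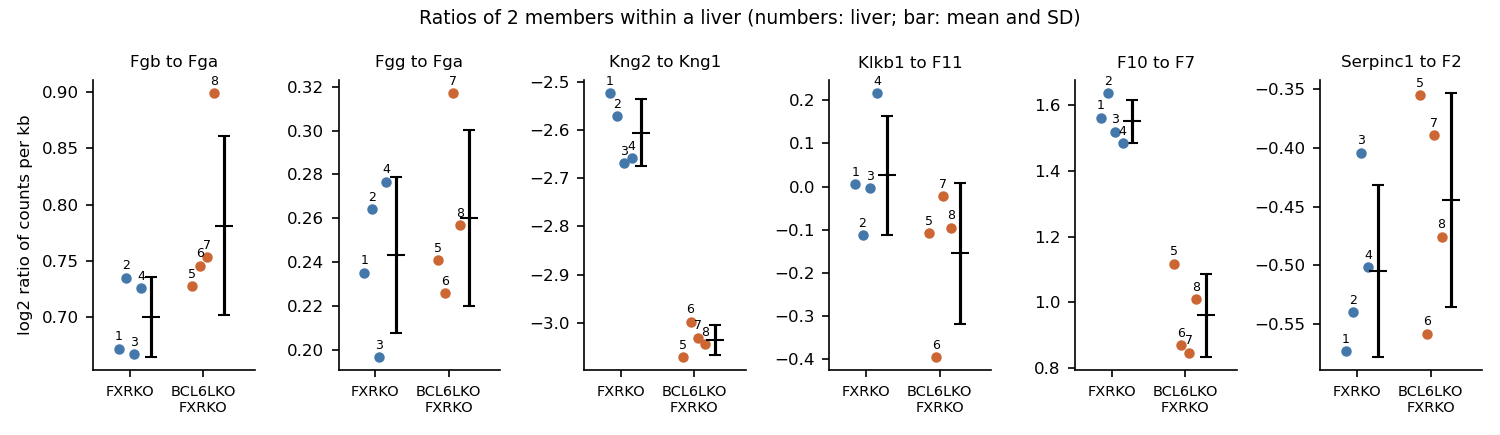
Log2 ratio of counts per kb of 2 members within each liver (y axis; points numbered by liver; bar, mean and SD of 4 livers) for the 6 pairs. F10 to F7 and Kng2 to Kng1 separate the genotypes, and the other 4 pairs overlap; the axes do not start at 0.

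As a share of all gene counts, the members took 3.08% to 3.88% in FXRKO and 3.03% to 4.50% in BCL6LKOFXRKO livers, a difference of -0.23 percentage points (exact permutation test, p = 0.429). Fibrinogen alone was 45.7% to 56.8% of the members' counts in FXRKO livers, 34.6% to 35.9% in livers 5, 7 and 8 and 53.2% in liver 6. The members without fibrinogen took 1.73% ± 0.08 in FXRKO and 2.02% ± 0.06 in BCL6LKOFXRKO livers (SD, n = 4 each). No livers overlapped in this share, with a difference of 0.30 percentage points (exact permutation test, p = 0.0286, adjusted p = 0.0857 over 3 shares). Without the 50 most counted genes that are no members in the total, the difference was 0.58 percentage points for all members, with the sign turned, and 0.95 for the members without fibrinogen.

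Of 24 further coagulation genes tested, 6 were called higher and 6 lower, 25% each. The shares over all tested genes were 16.2% higher and 13.5% lower, which is also the background for the lists of genes and markers below. Genes of the vitamin K cycle and of factor secretion gave 0 higher and 3 lower of 6: Ggcx, the carboxylase that the vitamin K-dependent members need, gave a log2 fold change of -0.69 ± 0.14 (adjusted p = 0.003), Vkorc1l1 one of -0.55 and Lman1, a carrier of factors V and VIII out of the endoplasmic reticulum, one of -0.34. Vkorc1, the reductase that warfarin inhibits, had a value of 0.15 (adjusted p = 0.297). Ggcx was thus lower in the livers in which F2, F7 and F10 were higher, at 64.5 to 70 CPM in FXRKO and 29.9 to 50.1 CPM in BCL6LKOFXRKO livers.

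Of 12 further inhibitors and regulators tested, Serpina10 (log2 fold change 0.90), the partner of protein Z against factor Xa, Habp2 (0.55) and Cpn1 (0.38) were called higher, and Serpine2 (-2.73), an inhibitor of thrombin on cell surfaces, and Cpn2 (-0.49) lower. Of 6 cell surface genes tested, Anxa2 (1.77), S100a10 (0.73) and Plgrkt (0.73), which bind plasminogen or its activator, were called higher, and F2r (-1.30), a receptor that thrombin cleaves, lower.

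Markers of other cells were measured beside the scarce members. Of 10 macrophage and monocyte markers 3 were called higher (Lyz2 0.81, Cd68 0.93, Ccr2 1.20), with summed levels of 386 to 548.4 CPM in FXRKO and 540.7 to 870.5 CPM in BCL6LKOFXRKO livers. Of 10 stellate cell and fibroblast markers 7 were called higher, among them Rgs5 (1.09), Dcn (1.05) and Pdgfrb (1.06), with summed levels of 239.8 to 334.1 and 492.8 to 604.1 CPM. Spp1 (1.004) and Krt19 (1.28) of 5 cholangiocyte markers tested and Lck (1.86), the only T cell marker tested, were called higher as well. The cholangiocyte sums were 58.7 to 85 and 92.3 to 155.9 CPM, those of the T cell markers 2 to 2.71 and 5.44 to 8.81 CPM. Of 10 hepatocyte markers, Alb (1.60) and Asgr1 (1.07) were called higher and 4 lower, with Cyp2e1 at -1.92, Pck1 at -1.61 and Ttr at -0.76. All hepatocyte markers were present in every liver, and no marker of any list was at 0 in all 8 livers. The part of these cells in the values of Vwf, Plat, Plau, Plaur, Thbd and F13a1 was not tested.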

How the data were processed

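Liver RNA from 4 FXRKO and 4 BCL6LKOFXRKO males was analysed. The authors mapped single-end reads to mm10 by STAR 2.5.2, discarding those that map to several places or carry more than 4 mismatches. They deposited exon counts per gene without normalization, made by HOMER 4.10 (versions from the submitters' processing notes) for 1 transcript a gene, with that transcript's length. The kit was stranded but no strand option is named for the counting, so reads of overlapping genes on opposite strands cannot be told apart. In GENCODE vM21, 26 of the 32 members share no exon base with another gene. Exon bases given for a gene pool all its GENCODE transcripts, and overlap within the counted transcript was not computed. No library was dropped.

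The deposited counts were tested in R 4.3.3 with edgeR 4.0.16 (filterByExpr, TMM, robust quasi-likelihood test, all 8 livers) and Benjamini-Hochberg adjustment over 12340 genes. CPM use the TMM factors, and a floor of 3 counts is 0.272 to 0.375 CPM, counting error only. Ratios and shares were tested by exact two-sided permutation over 70 orderings. Members and lists were chosen with earlier results of these data known. All members are accounted for; per-liver values are given for called members and for fibrinogen, F2, Plg, Serpinc1 and F3; of other lists, the up to 3 genes of smallest adjusted p per direction are named. One further gene of these lists is not reported here. The script was tested on simulated data. Alternatives were DESeq2 1.42.0, limma 3.58.1 voom with quality weights, other scalings and filters, another call rule and each liver left out. Figures were drawn with matplotlib 3.10.9.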

Additional observations from a re-analysis of the deposited data

Results flagged for a closer look

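Among 82 sets of 4 livers checked for a liver far from the other 3, 11 held one, where chance at about 1 in 20 gives 4.1. The gap as a part of the range was 0.839 (liver 3) and 0.931 (liver 6) for Fga, 0.9 (liver 6) for Fgb, and 0.869 (liver 3) and 0.963 (liver 6) for Fgg. The shares of counts repeated this, with 0.952 and 0.932 for all members and 0.835 and 0.943 for the fibrinogen chains in livers 3 and 6. These 9 values describe the same counts and are not separate evidence.

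Liver 8 stood apart in 2 others, with a gap of 0.852 for Proc (545 CPM against 401 to 422 CPM in livers 5 to 7) and of 0.85 for the log2 ratio of Fgb to Fga (0.90 against 0.73 to 0.75).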

How the results depend on the processing

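No paired analysis was run, because the 2 groups share no replicate number in the labels. The mouse numbers of livers 1 and 6 are adjacent. Those of livers 2, 7, 3, 8 and 4, in this order, form an unbroken run. No label says that such mice were littermates or 1 batch, so a pairing would have been a guess. Over 478 combinations of a member and an alternative, 410 kept direction and side of the threshold, 25 lost a call, 15 gained one and 28 changed sign, all of the last in members that were not called; the causes were not tested. Total counts alone shifted the median of all genes by -0.16 and the share of calls that are higher from 54.5% to 32.3%. They gave 6 members higher and 5 lower and 3 further coagulation genes higher, where 1404 of 12340 genes were higher and 2949 lower. At least 10 counts in every liver gave 1 member lower and the fold rule 0. Leaving out 1 liver gave 6 to 9 members higher and 0 to 6 lower, and leaving out livers 3 and 6 gave 4 members and 4 acute phase genes lower. Without the 50 most counted genes that are no members, the share difference turned from -0.23 to 0.58 percentage points for all members and was 0.95 for the members without fibrinogen. The sign changed for F3 (-0.27 to 0.16 with 1 liver out, 0.016 without livers 3 and 6), F8 (-0.19 to 0.21; DESeq2 -0.0083, total counts -0.14, TMM without the 50 most counted genes -0.011, no filter -0.016), Kng2 (-0.10 to 0.11; -0.14, -0.00051 and -0.0055 with total counts, TMM without those genes and no filter; -0.15 without livers 3 and 6), Serpind1 (-0.17 to 0.089; limma voom 0.029), Serpinf2 (-0.042 to 0.15; total counts -0.10; -0.087 without livers 3 and 6) and Cpb2 (-0.024 to 0.24; -0.046; -0.057). Depth limits the 9 scarce members most.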
